A study of Arabidopsis thaliana with 8 samples.

Results

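The 10 genes followed here are known from the response of Arabidopsis thaliana to low oxygen, and they were measured as transcripts of whole Col-0 seedlings after heat priming: ADH1 (AT1G77120), PDC1 (AT4G33070), SUS1 (AT5G20830), SUS4 (AT3G43190), HB1 (AT2G16060), HRE1 (AT1G72360), HRE2 (AT2G47520), LBD41 (AT3G02550), PCO1 (AT5G15120) and PCO2 (AT5G39890). Each of the 10 genes has a probe set of its own among the 22746 probe sets analysed on the Affymetrix ATH1 array. Primed seedlings, 5 days old, received 1.5 h at 37 °C, were returned to 22 °C for 1.5 h and were then exposed to 44 °C for 45 min. Samples were taken in the memory phase, the time after priming, at 4, 8, 24 and 48 h, and unprimed seedlings kept at 22 °C were sampled alongside. All seedlings were wild type and grew on 1% sucrose in cycles of 16 h light and 8 h dark. Each of the 8 conditions was 1 array hybridized with RNA of a pool of seedlings. Thus there was no spread between replicates, and no difference was tested. The genes were chosen by the differences between primed and unprimed arrays, with an early against a late sign, so these differences are given only as a description. In RNA of whole seedlings, fewer cells that express a gene and less RNA per cell cannot be told apart.

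When oxygen is scarce, plant cells obtain ATP from glycolysis and regenerate NAD+ by fermentation: pyruvate decarboxylase (PDC) makes acetaldehyde from pyruvate, and alcohol dehydrogenase (ADH) reduces it to ethanol. Sucrose synthases (SUS) feed glycolysis by cleaving sucrose at a lower cost of ATP than invertase, and haemoglobin 1 (HB1) removes nitric oxide. In air, plant cysteine oxidases (PCO) use oxygen to oxidise the N-terminal cysteine of group VII ethylene response factors (RAP2.2, RAP2.3, RAP2.12, HRE1 and HRE2), which marks these factors for degradation. In low oxygen the factors persist and activate the genes of the response, among them PCO1, PCO2 and the transcription factor gene LBD41.

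Values are log2 expression with a floor at 2. Array medians ranged between 6.995 and 7.08, and 26.3 to 26.9% of the probe sets of an array were within 0.05 of this floor. The plastid small heat shock protein gene HSP21 was higher in each primed array than in the unprimed ones, which were all at the floor, by at least 8.85 (48 h) to at least 12.62 (8 h) on the log2 scale. The labelled times of 24 and 48 h fall on the same hour of the day, a day of age apart, whereas the 4 and 8 h arrays differ from them in hour and in age. The heat was given in the dark, and whether unprimed seedlings were darkened alike is not stated. Hour of the day, age and time after priming cannot be told apart within the primed arrays.

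At 24 and 48 h, all 10 genes had lower values in primed than in unprimed seedlings, and at 4 and 8 h most were higher or close to them. At 4 h, 3 of the 10 were higher by 2-fold or more (PDC1, HRE2 and LBD41) and 1 was lower by 2-fold or more (SUS4). Among all probe sets, 9.36% were that much higher and 9.93% that much lower at this time. At 8 h, PDC1 and LBD41 were at least 2-fold higher and SUS4 was lower, against 7.33% of all probe sets higher and 7.91% lower. At 24 h, 9 of the 10 were at least 2-fold lower and 0 higher, and only HRE2, which lay near the floor, was not among the 9. The shares of all probe sets were 1.67% lower and 2.76% higher. At 48 h, 4 of the 10 were at least 2-fold lower (LBD41, SUS4, PDC1 and SUS1) and 0 higher, against 0.932% of all probe sets lower and 0.747% higher. The median difference of the 10 genes was 0.66, 0.58, -1.61 and -0.88 at 4, 8, 24 and 48 h, and that of all probe sets was 0.00 at each time. The mean difference over 4 and 8 h had the opposite sign of that over 24 and 48 h for 8 genes, against 33.2% of all probe sets. At both 4 and 8 h above 0 and at both 24 and 48 h below 0 were 5 genes (PDC1, LBD41, HB1, PCO2 and, with values near the floor at 3 of the times, HRE2), against 6.63% of all probe sets. SUS1 and SUS4, the 2 without opposite signs of the means, had negative means in both periods. Of all probe sets, 23.5% were below 0 at both 24 and 48 h. Because these contrasts chose the genes, nothing is read from their counts. Close to the limit of 2-fold lay PCO1 (-1.01), HB1 (2.14-fold lower) and PCO2 (-1.12) at 24 h and SUS4, at exactly 2-fold lower, at 4 h on the inside, and HRE1 at 8 h (0.99) and ADH1 at 4 h (0.97) on the outside.

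**Figure D1:**
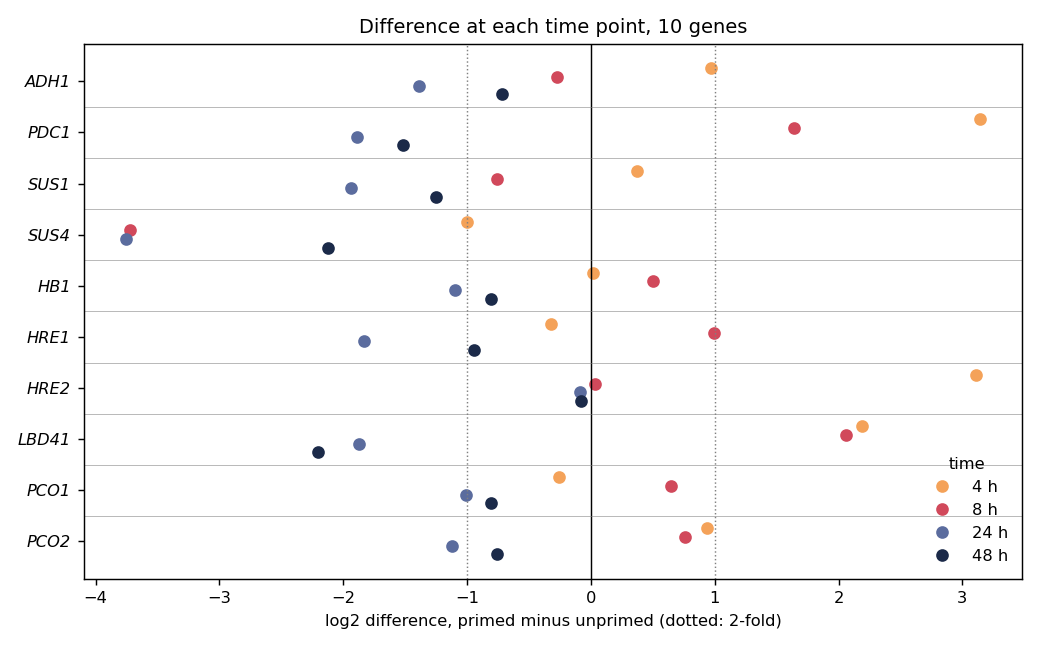
Log2 value of the primed array minus that of the unprimed array of its time (horizontal axis) for the 10 genes (vertical axis), with 1 point for each of 4, 8, 24 and 48 h and dotted lines at 2-fold. The points of 24 and 48 h lie below 0 for all genes, those of HRE2 only by 0.09 and 0.08, whereas PDC1 and LBD41 lie beyond 2-fold on the right at 4 and 8 h and beyond 2-fold on the left at 24 and 48 h.

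Of the fermentation genes, PDC1 had the larger differences. PDC1, which encodes a pyruvate decarboxylase, had log2 values of 11.54, 10.61, 8.52 and 8.92 in primed seedlings at 4, 8, 24 and 48 h, against 8.40, 8.97, 10.41 and 10.44 in unprimed seedlings. The primed series was thus highest at 4 h and the unprimed series at 24 and 48 h, and their ranges overlapped. Primed over unprimed, PDC1 was 8.82-fold and 3.12-fold higher at 4 and 8 h and 3.71-fold and 2.87-fold lower at 24 and 48 h. ADH1, the alcohol dehydrogenase that completes ethanol fermentation, had 11.83, 11.63, 11.09 and 11.74 in primed seedlings and 10.86, 11.90, 12.48 and 12.46 in unprimed seedlings. Its primed values stayed within 0.74 of each other and lay inside the unprimed range. ADH1 was 1.96-fold higher in primed seedlings at 4 h and lower by 1.21-fold, 2.62-fold and 1.65-fold at 8, 24 and 48 h.

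The sucrose synthase genes differed from the others in that their mean difference was negative early as well. SUS4 had 4.05, 3.45, 3.69 and 6.51 in primed seedlings, against 5.05, 7.17, 7.44 and 8.63 in unprimed seedlings at 4, 8, 24 and 48 h. Values increased with each later time in unprimed seedlings, while in primed seedlings only the 48 h array lay above the lowest unprimed array. SUS4 was lower in the primed array of every time point, by 2-fold at 4 h, 13.2-fold at 8 h, 13.5-fold at 24 h and 4.35-fold at 48 h. SUS1 had 6.74, 6.67, 5.80 and 7.01 in primed and 6.37, 7.43, 7.74 and 8.26 in unprimed seedlings. Here too the unprimed values increased with time, and the primed value was lowest at 24 h. The log2 differences of SUS1 were 0.37, -0.76, -1.94 and -1.25.

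HB1, the haemoglobin gene, was strongly detected in all arrays. It had 12.95, 12.27, 11.68 and 12.28 in primed and 12.93, 11.77, 12.78 and 13.09 in unprimed seedlings. The arrays of 4 h were nearly equal (a difference of 0.02), and the lowest values were those of the primed 24 h and the unprimed 8 h array. Primed seedlings were 1.41-fold higher at 8 h and 2.14-fold and 1.75-fold lower at 24 and 48 h. When each array was centred on 9 reference genes, the difference at 4 h was -0.23, so no direction can be given for it.

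Of the transcription factor genes, LBD41 was, like PDC1, beyond 2-fold at each time point. LBD41, a LOB domain factor, had 8.26, 7.67, 7.56 and 5.41 in primed and 6.07, 5.61, 9.43 and 7.61 in unprimed seedlings. It decreased with time in primed seedlings, and the highest of all 8 values was that of the unprimed 24 h array. Differences were 2.19, 2.06, -1.87 and -2.20, more than 3.6-fold in size at each time point. HRE1, a group VII ethylene response factor whose transcript itself accumulates in low oxygen, had 6.69, 8.02, 7.00 and 8.00 in primed and 7.01, 7.03, 8.83 and 8.94 in unprimed seedlings. Primed values alternated between about the level of the early unprimed arrays and a higher one. The differences of HRE1 were -0.32, 0.99, -1.83 and -0.94. HRE2, another factor of this group, had 5.40 in the primed 4 h array and 2.32, 2.24 and 2.24 in the later primed arrays, against 2.29, 2.29, 2.33 and 2.32 in unprimed seedlings. The primed 4 h array alone was clearly above the low end of the scale. Its difference is a lower bound, at least 3.01 with the unprimed value raised to 2.39, the 30th percentile of all values. The other 3 differences (0.03, -0.09 and -0.08) were between values near the floor, and the sign at 8 h turned when arrays were centred on the reference genes (-0.07).

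The oxygen sensors PCO1 and PCO2 showed smaller differences. PCO2 had 8.13, 7.25, 6.92 and 6.67 in primed and 7.19, 6.49, 8.04 and 7.43 in unprimed seedlings. It decreased with time in primed seedlings, while the unprimed series was lowest at 8 h and highest at 24 h. The differences were 0.94, 0.76, -1.12 and -0.76. PCO1 had 9.78, 9.14, 8.70 and 8.53 in primed and 10.04, 8.49, 9.71 and 9.34 in unprimed seedlings. Like PCO2 it decreased with time in primed seedlings, and its lowest unprimed value was at 8 h. PCO1 gave -0.26, 0.65, -1.01 and -0.81, so that only the 8 h array was higher in primed seedlings.

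**Figure D2:**
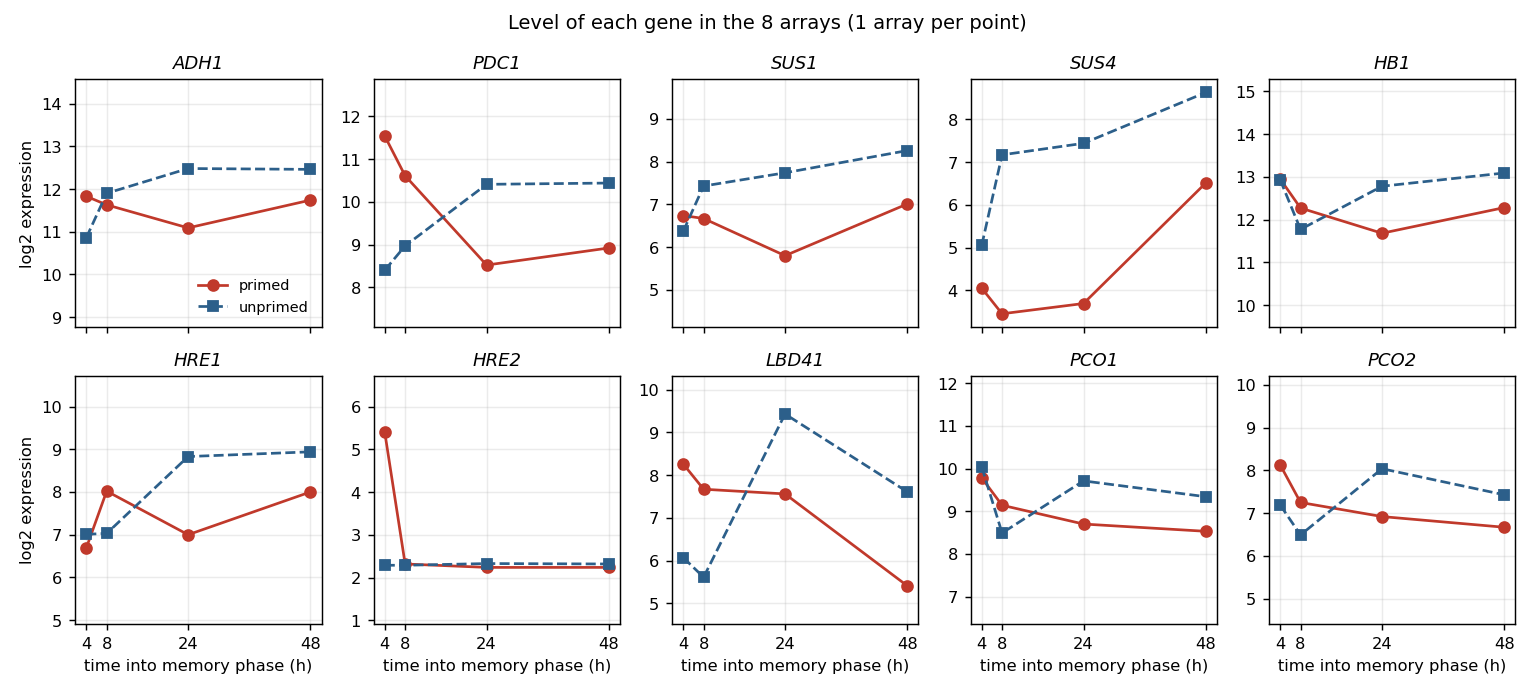
Log2 expression (vertical axis, the same span in each panel) against time into the memory phase in h (horizontal axis) for the 10 genes in primed (circles, solid lines) and unprimed seedlings (squares, dashed lines), 1 array per point with no replicates. The curves of PDC1, HB1, HRE1, HRE2, LBD41, PCO1 and PCO2 cross between 8 and 24 h, those of HRE2 near the floor, and SUS4 is lower in primed seedlings throughout.

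The change from early to late had a part in each series of arrays. The mean of the 24 and 48 h arrays was lower than the mean of the 4 and 8 h arrays in primed seedlings for 8 of the 10 genes, with SUS4 and HRE1 as the exceptions, and higher in unprimed seedlings for all 10. Both held for 8 genes, against 16.0% of all probe sets. Taken singly, the lower late mean in primed seedlings was seen in 8918 of the 22746 probe sets. The higher late mean in unprimed seedlings was seen in 8790. In primed seedlings, late values were at least 2-fold lower for PDC1 (-2.36), HRE2 (-1.62) and LBD41 (-1.48), against 7.21% of all probe sets, and SUS4 was 1.35 higher. In unprimed seedlings, which received no heat, late values were at least 2-fold higher for 6 genes, against 2.23% of all probe sets: LBD41 (2.68), SUS4 (1.93), HRE1 (1.87), PDC1 (1.74), SUS1, and ADH1 with the lowest value of the 6 (1.09). For ADH1, SUS1, SUS4, HRE1 and LBD41 the unprimed change was larger in size than the primed change. For PDC1, PCO1, HB1 and HRE2 the primed change was larger, and for PCO2 both were 0.90 in size. The median change of the 10 genes was -0.74 in primed and 1.095 in unprimed arrays, and the median of all probe sets was 0.00 in both. The early and late levels enter the differences that chose the genes, so these counts are a description as well.

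**Figure D3:**
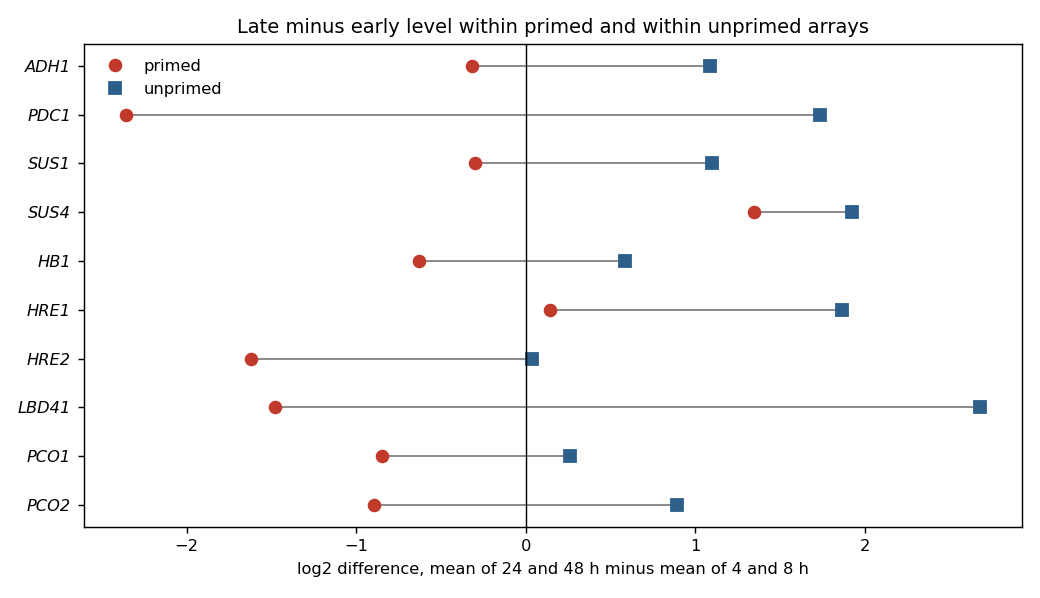
Mean log2 value of the 24 and 48 h arrays minus that of the 4 and 8 h arrays (horizontal axis) for the 10 genes (vertical axis), within primed (circles) and within unprimed seedlings (squares). The squares lie above 0 for all 10 genes, that of HRE2 by 0.04, and the circles lie below 0 for 8.

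Levels without priming varied about as much as the differences. Over the 4 unprimed arrays the genes spanned between 1.32 (HB1) and 3.82 (LBD41) on the log2 scale, except HRE2 (0.04). Between the unprimed 24 and 48 h arrays, LBD41 fell by 1.82 and PCO2 by 0.61, SUS4 was 1.19 higher at 48 h, and ADH1 and PDC1 differed by 0.02 and 0.03. The counts therefore depended on the control. With the average of all 4 unprimed arrays in place of the array of the same time, 3 genes (PDC1, SUS1 and SUS4) in place of 9 were at least 2-fold lower at 24 h, 1 (LBD41) in place of 4 at 48 h, and 5 in place of 8 had opposite signs early and late. The shares of all probe sets were not computed with this control. The median at 8 h then was -0.15, below 0, and that at 24 h was -0.89. PDC1 kept its signs with this control (1.98, 1.05, -1.04 and -0.63), as did SUS4 and HRE2. The other 7 genes changed sign at 1 time or more. LBD41 was then 0.38 at 24 h, ADH1 -0.09 at 4 h, SUS1 -0.71 at 4 h, HB1 -0.37 at 8 h, PCO2 -0.04 at 8 h and HRE1 0.05 at 48 h. PCO1 turned at both early times, to 0.38 at 4 h and -0.25 at 8 h. Relative to the unprimed 4 h array, the primed 24 h array was within 0.27 for ADH1, PDC1, PCO2, HRE1 and HRE2, higher for LBD41 (1.49) and lower for SUS4 (-1.36), PCO1 (-1.34), HB1 (-1.25) and SUS1 (-0.57).

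Markers of seed, root and shoot also differed between the arrays. Of 8 seed genes (storage proteins, oleosin and late embryogenesis genes), 7 were at least 2-fold lower in primed seedlings at 4 h and 7 at 24 h, with 3 at 8 h and 2 at 48 h. At least 2-fold higher were 1 at 4 h (EM6, 1.09), 1 at 8 h (SESA2, 2.60) and 0 at 24 and 48 h. The shares of all probe sets that much lower were 9.93%, 7.91%, 1.67% and 0.932% at 4, 8, 24 and 48 h. Those that much higher were 9.36%, 7.33%, 2.76% and 0.747%. The log2 summed level of the seed genes lay between 6.06 and 7.82 in primed and between 7.57 and 11.5 in unprimed arrays, with the highest value in the unprimed 24 h array. In that array and in the unprimed 4 h array none of the 8 was at the floor, against 4 in the primed 4, 24 and 48 h arrays. With the unprimed 8 and 48 h arrays as controls for 4 and 24 h, a setting chosen after seeing the data, 6 of the 10 low-oxygen genes were at least 2-fold lower at 24 h and the median difference was -1.39. LBD41 (-0.05), PCO1 (-0.64) and PCO2 (-0.51) were no longer beyond 2-fold at 24 h with this control, ADH1 (-0.07) and SUS1 (-0.69) were below 0 and PCO1 (1.29) above 0 at 4 h, and at 4 h the number at least 2-fold higher was 6 in place of 3. Shares of all probe sets were not computed for this choice of controls. Of 15 probe sets of root genes, 7 were at least 2-fold lower in primed seedlings at 4 h and 6 at 8 h, and none at 24 or 48 h. At least 2-fold higher were 1 at 8 h, 1 at 24 h and 0 at 4 and 48 h. The log2 summed root level was 13.4, 13.8, 14.8 and 14.7 in primed and 14.9, 15.0, 14.7 and 14.7 in unprimed arrays. Most of this linear sum is 1 gene, PYK10, so it mainly follows that gene. PYK10 had 12.87, 13.46, 14.59 and 14.54 in primed and 14.55, 14.69, 14.46 and 14.51 in unprimed arrays. Of the root genes, PLT1 and NRT2.1 stayed at the floor in each of the 8 arrays. The log2 summed level of the 7 shoot probe sets was 16.8 to 17.6 in primed and 17.0 to 17.6 in unprimed arrays. Single shoot probe sets differed more: that of LHCB2.1 by 2.21 at 4 h and 1.25 at 8 h, and CA1 by -1.80 at 8 h. At 24 and 48 h, 0 of the 7 were beyond 2-fold. The part of seed, root or shoot tissue in the levels of the 10 genes was not tested. The change of control cannot test it, since it also changes hour of the day (8 for 4 h) or age (48 for 24 h).

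Transcripts for components of oxygen sensing lay mostly within 2-fold, as did most of all probe sets. Of 14 probe sets for 13 genes (the other PCO genes, RAP2.2, RAP2.3, RAP2.12, and genes of the degradation pathway and its partners), 0 were at least 2-fold higher at any of the 4 times, 1 was lower at 4, 24 and 48 h and 0 at 8 h. The 1 was HRA1 in each case. Over all probe sets, the shares higher and lower were 9.36% and 9.93% at 4 h and 7.33% and 7.91% at 8 h. They were 2.76% and 1.67% at 24 h and 0.747% and 0.932% at 48 h. HRA1, a factor that restrains RAP2.12, had 6.54, 7.63, 7.74 and 5.71 in primed and 7.56, 6.64, 9.43 and 7.68 in unprimed seedlings. Its highest value was that of the unprimed 24 h array, as for LBD41, and its differences were -1.02, 0.99, -1.69 and -1.97. RAP2.12 differed by 0.11, 0.30, -0.40 and -0.69, RAP2.2 by 0.28, 0.69, 0.23 and -0.09, and RAP2.3 by -0.54, -0.66, -0.29 and -0.06. PCO3 (-0.08, 0.07, -0.56 and -0.03), PCO4 (0.93, 0.40, 0.50 and -0.12) and PCO5 (-0.32, -0.03, -0.16 and -0.17) lay within 2-fold, unlike PCO1 and PCO2 at 24 h. PRT6, the ubiquitin ligase of the pathway, differed by 0.74, 0.81, -0.14 and -0.16 on the brighter of its 2 probe sets.

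Other genes of fermentation, glycolysis and sucrose cleavage lay mostly within 2-fold, as did most of all probe sets, with a few large exceptions at 4 and 8 h. Of 17 probe sets, 3 passed 2-fold upwards and 1 downwards at 4 h. These counts were 4 and 1 at 8 h, 1 and 0 at 24 h, and 0 and 1 at 48 h. Over all probe sets, the shares higher and lower were 9.36% and 9.93% at 4 h and 7.33% and 7.91% at 8 h. They were 2.76% and 1.67% at 24 h and 0.747% and 0.932% at 48 h. PDC2, the other pyruvate decarboxylase measured alone, had 13.56, 12.83, 10.36 and 10.45 in primed and 10.20, 10.99, 11.24 and 10.99 in unprimed seedlings. As for PDC1, the primed series was highest at 4 h and below the unprimed one from 24 h on, with differences of 3.36, 1.84, -0.88 and -0.54. PFK3, a phosphofructokinase of glycolysis, had 11.19, 9.82, 8.54 and 7.90 in primed and 7.56, 7.35, 7.82 and 7.93 in unprimed seedlings. Its unprimed level was nearly flat, and the differences were 3.63, 2.47, 0.72 and -0.03. SUS3 differed by 0.82, 2.85, 1.31 and 0.48, opposite in sign to SUS4 at each time. Its levels were low, at 4.16, 5.72, 4.10 and 2.64 in primed and 3.34, 2.87, 2.79 and 2.16 in unprimed seedlings. The 48 h values were near the floor. GDH1, a glutamate dehydrogenase, gave -2.03, 0.20, -0.49 and -1.02. AT4G17260, annotated as an L-lactate dehydrogenase and picked after its values had been seen, gave 1.91, 1.14, -0.82 and -0.38.

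Among 33 further genes known to be induced by low oxygen, more were lower than higher in primed seedlings at 24 and 48 h, and both directions were seen at 4 and 8 h. At least 2-fold higher and lower were 7 and 9 at 4 h, 7 and 3 at 8 h, 0 and 12 at 24 h, and 1 and 5 at 48 h. The shares of all probe sets, higher and lower, were 9.36% and 9.93%, 7.33% and 7.91%, 2.76% and 1.67%, and 0.747% and 0.932% at these times. The median differences of the 33 were 0.02, 0.19, -0.65 and -0.39. This list and the other lists of low-oxygen genes were chosen with earlier results of these data known, so their counts are a description only. SRO5, related to poly(ADP-ribose) polymerases, had 11.58, 8.96, 4.14 and 3.73 in primed and 3.45, 4.24, 7.47 and 4.32 in unprimed seedlings. The primed arrays of 4 and 8 h and the unprimed array of 24 h stood above the others, and differences were 8.13, 4.72, -3.33 and -0.59. FTM1, a stearoyl-ACP desaturase, was lower at each time (-2.16, -3.05, -1.76 and -1.84), as was ACO1, an ACC oxidase of ethylene synthesis (-1.37, -2.19, -2.67 and -0.89). AT2G17850 gave 0.14, -0.77, -4.59 and -2.58. Over the 64 probe sets of the 3 lists, 1 was at least 2-fold higher and 13 lower at 24 h. Set against the average of all 4 unprimed arrays these were 3 and 5, and with the unprimed 48 h array 2 and 6. Shares of all probe sets were not computed for these controls. In unprimed seedlings 9 of the 64 were at least 2-fold higher late than early, against 2.23% of all probe sets, and in primed seedlings 12 were at least 2-fold lower, against 7.21%.

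**Figure D4:**
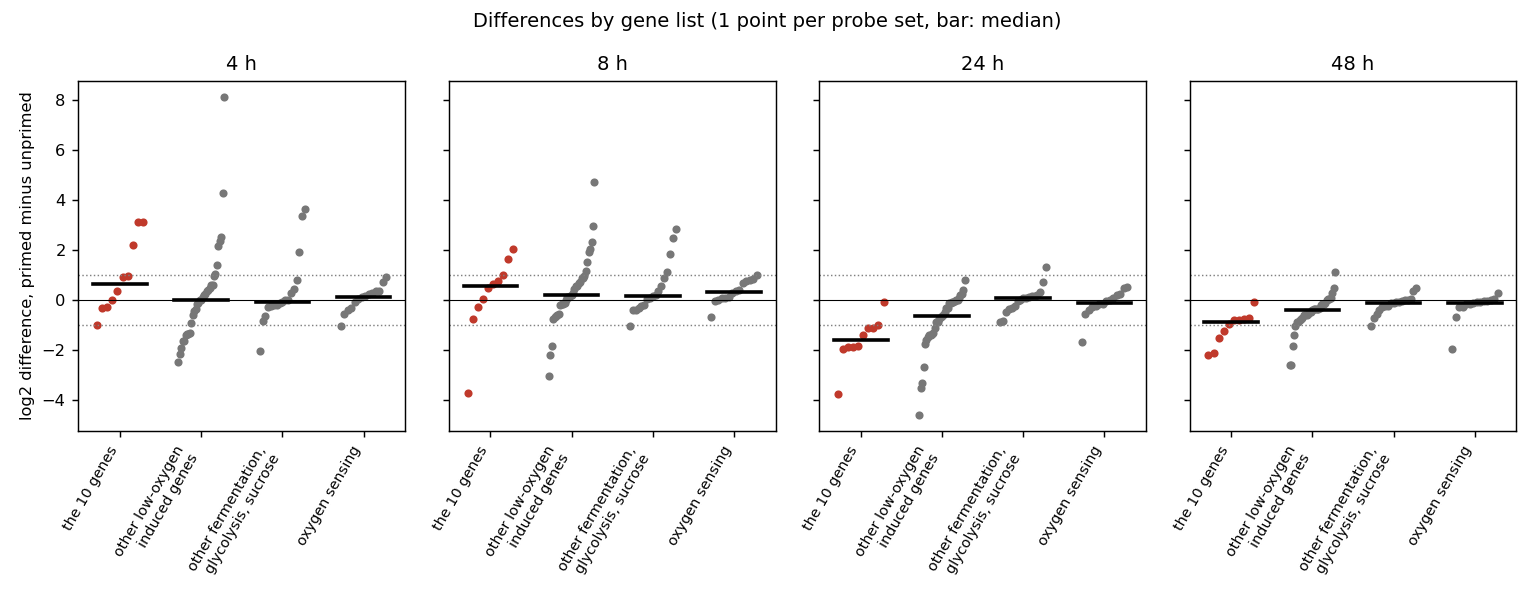
Log2 difference between primed and unprimed seedlings (vertical axis) at each of the 4 times (panels) for the 10 genes and for the 3 other lists of low-oxygen genes (horizontal axis), with 1 point per probe set, a bar at the median of each list and dotted lines at 2-fold. At 24 h the median of the 10 genes is -1.61, that of the 33 other induced genes -0.65 and that of oxygen sensing -0.10.

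The 10 genes did not share a single profile. Over the 8 arrays, Pearson's r between members was above 0 in 38 of 45 pairs, with a median of 0.39 and a range from -0.44 (HRE1 with HRE2) to 0.91 (ADH1 with SUS1). SUS1 and SUS4 (0.89) and LBD41 and PCO2 (0.86) were also close. The mean of the 10 genes, each centred on its own mean, was 0.46, -0.17, -0.76 and -0.34 in primed and -0.45, -0.36, 0.84 and 0.78 in unprimed seedlings at 4, 8, 24 and 48 h. Of 2445 other probe sets of 1 gene that spanned at least 2 and reached 6 on the log2 scale, those most like this mean were AT1G21140, annotated as a nodulin (r = 0.83), the auxin-responsive SAUR28 (0.83), AT2G17850 (0.83), the protein kinase gene SNRK2.5 (0.79) and AT5G23480 (0.78). AT1G21140 had 8.06, 7.13, 5.96 and 6.22 in primed and 6.44, 5.96, 7.21 and 7.65 in unprimed seedlings, and like PDC1 was higher in primed seedlings at 4 and 8 h and lower at 24 and 48 h. All r values are over the same 8 arrays, normalized between arrays, and they were not tested. Time, hour of the day and seedling age differ among these arrays. The 10 genes were chosen by early against late signs, and the other probe sets by likeness to their mean. A pattern shared among them thus follows in part from the choice.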

How the data were processed

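RNA of whole Col-0 seedlings was measured on 8 Affymetrix ATH1 arrays, 1 for each of 8 conditions. The authors deposited log2 expression values normalized between arrays. GCRMA and RMA are named, without versions, in the submitters' processing notes. The build was not given in the sources used here. Both deposited tables held equal values in all 182480 cells compared. The authors' 4 columns of primed against unprimed log2 differences were not used. Of 22810 probe sets, 64 controls and, in addition, 1 line without a probe set were left out. Of the 22746 analysed, 21194 are of 1 gene. Symbols were taken from RefSeq (TAIR10.1), and the files' annotation was used elsewhere.

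The unprimed array was subtracted from the primed array of the same time, differences were rounded to 2 decimals, and 2-fold (a log2 difference of 1) was the limit. Counts were checked on simulated data. Python 3.11.15, numpy 2.4.6, pandas 2.3.3 and matplotlib 3.10.9 were used. No test was run. The scale has its floor at 2, and precision is limited by the number of arrays. The 10 genes, the lists and the alternatives were chosen with earlier results of these data known. Genes were named by rule: the 10 genes, all PCO genes and group VII factors, the 4 with the largest mean difference in each of the 3 other low-oxygen lists (probe sets of 1 gene), and the 5 most like the mean profile. Alternatives were quantile normalization, centring on reference genes, the average of all 4 unprimed arrays in place of the matched one, a raised floor, limits of 1.5-fold and 4-fold, the other table, leaving out dim genes, and, added later, the unprimed 8 and 48 h arrays as controls. Promoter and protein sequences were not analysed here.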

Additional observations from a re-analysis of the deposited data

Results flagged for a closer look

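Of the 10 genes, 5 were higher in primed seedlings in both early pairs of arrays (4 and 8 h) and lower in both late pairs (24 and 48 h). The same held for 14 of the 64 other low-oxygen probe sets and for 6.63% of all probe sets. The mean log2 difference between primed and unprimed seedlings at 4 and 8 h exceeded that at 24 and 48 h by 4.16 for LBD41, 4.10 for PDC1, 1.79 for PCO2, 1.66 for HRE2 and 1.22 for HB1. For HRE2 this rests on the 4 h pair, and for HB1 the difference at 4 h was 0.02. When arrays were centred on the reference genes, HB1 at 4 h (-0.23) and HRE2 at 8 h (-0.07) were below 0. Of the 14, those described above were SRO5 (8.39), PDC2 (3.31), AT4G17260 (2.13), the brighter probe set of PRT6 (0.93) and RAP2.12 (0.75). AT1G21140, outside the lists and picked by its likeness to the mean of the 10 genes, gave 2.74. The change between early and late was not tested, since there was 1 array per condition, and for the 10 genes this sign pattern is what their choice used. The other lists were chosen with earlier results of these data known.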

How the results depend on the processing

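Of 103 counts under alternatives, 80 stayed within 1.5 times the count reported, and quantile normalization, centring on reference genes, the raised floor and the other table moved none past it. The other table holds the same values, so its counts, which are among the 80, could not move. Shares of all probe sets were computed only with the matched control and the 2-fold limit, so counts under alternatives have none beside them. No replicate spread exists to judge the medians. Over the alternatives they lay between 0.35 and 1.24 at 4 h, -0.15 and 0.76 at 8 h, -1.67 and -0.89 at 24 h, and -0.92 and -0.50 at 48 h, so that only at 8 h was there a change of sign, with the average of all 4 unprimed arrays as the control. With a 1.5-fold limit, 5 genes were higher at 4 h and 5 at 8 h, 2 were lower at 8 h and 9 at 48 h. With a 4-fold limit, 1 was higher at 8 h, and 0, 1 and 2 were lower at 4, 24 and 48 h. Leaving out the 3 dim genes (SUS1, SUS4 and HRE2) left 0 lower at 4 h, 0 at 8 h and 2 at 48 h. SUS4 had been the only gene lower at 4 and 8 h, and SUS1 and SUS4 were among those lower at 48 h. SUS1 and SUS4 were also the genes without opposite signs early and late, and 7 genes with opposite signs remained. With the average of all 4 unprimed arrays as the control, 1 was higher at 8 h, 2 were lower at 4 h, 3 at 24 h and 1 at 48 h, and 5 had opposite signs early and late. Of the 64 other low-oxygen probe sets, 7, 3 and 0 were then higher at 8, 24 and 48 h and 5 lower at 24 h. With the unprimed 8 and 48 h arrays as controls, chosen after seeing the data, 6 of the 10 genes were higher at 4 h, and of the 64 others 2 were higher and 6 lower at 24 h. The control changes these values because unprimed levels differed between times; the cause of that was not tested. Values near the floor limit HRE2, and 1 array per condition limits all values.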
